A study of Mus musculus with 30 samples.

Results

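The youngest embryonic ovaries of the series, those of 11.5 days post coitum (dpc), were set against the ovaries of all later ages. Of the 10 RNA samples 2 were from 11.5 dpc, which makes 6 of the 30 arrays. The other 8 samples, on 24 arrays, were from 12.5, 14.5, 16.5 and 18.5 dpc, each age having 2 numbered samples. Every sample was total RNA from pooled ovaries of mice of mixed BL/6-129 background, with no treatment, transgene or mutation named. The labels state sexing by PCR for Sry at 11.5 and 12.5 dpc and do not say whether the mesonephros was removed at any age. Each sample number had an Affymetrix array of types A, B and C, whose probe sets differ. Nothing in the labels states that samples of the same age were separate pools of ovaries. P-values then measure only how far these samples spread, which may be technical variation.

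A transcript was called separated when both 11.5 dpc samples lay above, or both lay below, all 8 later samples on its array. Separation is a description of the values and has no test. It was called changed when the limma contrast of the 11.5 dpc mean against the mean of the 4 later ages had an adjusted p under 0.05. Differences are given as log2(signal + 16), 11.5 dpc minus later ages, with the standard error of the model. On that scale the change of a dim gene comes out too small. Signals belong to 1 probe set each, so levels are compared between samples and never between genes.

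At 11.5 dpc the mouse gonad has just formed as a thickening of the coelomic epithelium on the mesonephros, and somatic factors such as WT1, NR5A1, GATA4 and LHX9 are needed for it to form and survive. Primordial germ cells have arrived or are arriving, still carry pluripotency factors, and then switch on a germ cell programme that includes DAZL and DDX4. In the ovary the germ cells later enter meiosis, and the supporting cells around them become pregranulosa cells that express FOXL2, FST and components of WNT signalling.

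Of 24825 probe sets tested, 2094 (8.44%) changed, of which 853 (3.44%) were higher and 1241 (5%) lower at 11.5 dpc. Both 11.5 dpc samples lay above all later samples in 1288 probe sets (5.19%) and below all of them in 1397 (5.63%). Both directions together made 2685 probe sets (10.8%). With the 10 samples in random order, a probe set would be separated above or below with a probability of 0.0444. Signals that rise or fall steadily with age also put 11.5 dpc outermost, so random order is a limited reference. Changed and separated together were 1243 (5.01%), with 497 higher (2%) and 746 lower (3.01%). Of 12589 named genes, each read from the brightest of its tested probe sets, 704 (5.59%) were separated above and 766 (6.08%) below. Of all named genes 315 (2.5%) were changed and separated with higher signal and 419 (3.33%) with lower signal. The array types contributed unequally, since the changed share of tested probe sets was 14.1% for type A, 7.54% for type B and 4.29% for type C.

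The split between directions depended on the scaling. With each array centred on its median, 1109 probe sets were higher and 943 lower. For changed and separated probe sets that split was 721 higher and 550 lower. The median signal of array A was 47 in 11.5 dpc replicate 1 and 54.3 to 60.2 in the other 9 samples. Without that replicate 866 probe sets changed, 253 higher and 613 lower, against 1918 without 11.5 dpc replicate 2. Without 18.5 dpc replicate 1 the count was 1389. For Gapdh the control signal at the 3 prime end over that at the 5 prime end, a measure of RNA integrity, was 0.845 and 0.83 in the 11.5 dpc samples. In the 12.5 dpc samples it was 0.83 and 0.838, and from 14.5 dpc on it ran from 0.885 to 1.09. The same ratio of the actin control did not follow that order, with 1.77 and 1.5 at 11.5 dpc, 1.18 and 1.3 at 12.5 dpc and 1.54 to 2.19 later. Their part in the results was not tested.

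The median distance between the nearest 11.5 dpc sample and the nearest later sample was 0.19 for the 315 higher genes and 0.23 for the 419 lower genes on the log2 scale, and it reached 1 in 5 and 9 genes. The median difference of the 315 higher genes was 0.82, a 1.76-fold difference, and 103 of them differed by at least 2-fold. For the 419 lower genes the median was -0.93, a 1.91-fold difference, and 187 differed by at least 2-fold. The later age whose mean lay nearest to 11.5 dpc was 12.5 dpc for 219 of the higher and 270 of the lower genes. Just inside the limit of separation stood Mest, an imprinted gene of embryonic mesoderm, with 1330.5 and 1348.1 at 11.5 dpc against a highest later signal of 1329.3. Just outside it stood Igf2bp1, an mRNA-binding protein of fetal tissues, with 175.5 and 280.7 against 196.4 in 12.5 dpc replicate 1.

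The 5 higher genes with a distance of at least 1 were Mgam, Kcne3, Sel1l3, Sphkap and Dnajc12. Mgam, which encodes the maltase-glucoamylase of intestinal brush border, had signals of 221.7 and 199.3 at 11.5 dpc and of 3.3 to 50 later (median 12.9). Its difference was 2.86 ± 0.36 (adjusted p = 0.00039), a 7.27-fold difference. The highest of the later samples was 12.5 dpc replicate 2. Kcne3, a regulatory subunit of potassium channels, read 400.2 and 214.5 at 11.5 dpc and 7.3 to 83.3 later (median 28.3), a difference of 2.77 ± 0.33 (adjusted p = 0.000272). Both samples lay above all later ones, although they differed from each other by more than the later median. Sphkap, which anchors protein kinase A, read 350.1 and 470.5 against 16 to 155.1 (median 50.05), with the 12.5 dpc samples highest among the later ones, a difference of 2.61 ± 0.25 (adjusted p = 3.97e-05). Cdh10, a type II cadherin, differed by 2.65 ± 0.37 and Sel1l3 by 2.43 ± 0.34.

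Pls3, an actin-bundling protein, had 1308.4 and 976.3 at 11.5 dpc. Its later signals ran from 139.8 to 518.9 (median 226.6), highest at 12.5 dpc. The difference was 2.08 ± 0.14 (adjusted p = 6.44e-06). Pls3 also fell by 1.63 between 12.5 and 18.5 dpc (adjusted p = 0.00021), a contrast that uses no 11.5 dpc array. Dnajc12, a co-chaperone of the HSP40 family, behaved differently among the later ages, where all 8 signals lay between 54.6 and 88.7 (median 64.25). At 11.5 dpc it read 254.5 and 203.9, a difference of 1.55 ± 0.23 (adjusted p = 0.00136), and its difference between 18.5 and 12.5 dpc was -0.10 (adjusted p = 0.873).

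Some genes of lipid handling were among the high ones at 11.5 dpc. Lpl, lipoprotein lipase, read 341.8 and 274.7 at 11.5 dpc against 91.4 to 138.3 (median 114.55), a difference of 1.31 ± 0.15 (adjusted p = 0.000328). Its 18.5 minus 12.5 dpc difference was 0.05 (adjusted p = 0.895). A second Lpl probe set on array A was also separated, with 72.4 and 61.4 against at most 58.9, but its difference of 0.51 was not called (adjusted p = 0.147). Cebpd, a transcription factor of adipocyte differentiation and acute-phase responses, read 483.2 and 432.5 against 92.4 to 225.5 (median 120), a difference of 1.67 ± 0.12 (adjusted p = 7.87e-06). Naaa, an acid amidase that hydrolyses N-acylethanolamines, read 2035 and 1402.1 against 253.7 to 1206.5 (median 618.45), a difference of 1.5 ± 0.18, and its second probe set on array C gave 0.30 without separation. Among 26 tested genes of lipid uptake, storage and lysosomes, 4 were higher and 4 lower at 11.5 dpc, or 15.4% each way beside 4.35% and 5.77% of all named genes. Like every list here, this one was written with earlier results of these data known, so these shares are descriptive only. The lower ones held lysosomal genes, such as Ctsd, cathepsin D, with 312.6 and 378.0 against 411.7 to 780.6 (median 639.2). Npc1, the lysosomal cholesterol transporter, differed by -0.67, and this call was lost without 11.5 dpc replicate 1 (difference -0.50). Without that replicate 1 of the 26 was lower, and with 12.5 and 14.5 dpc alone as later ages 3 were higher and 0 lower.

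**Figure D1:**
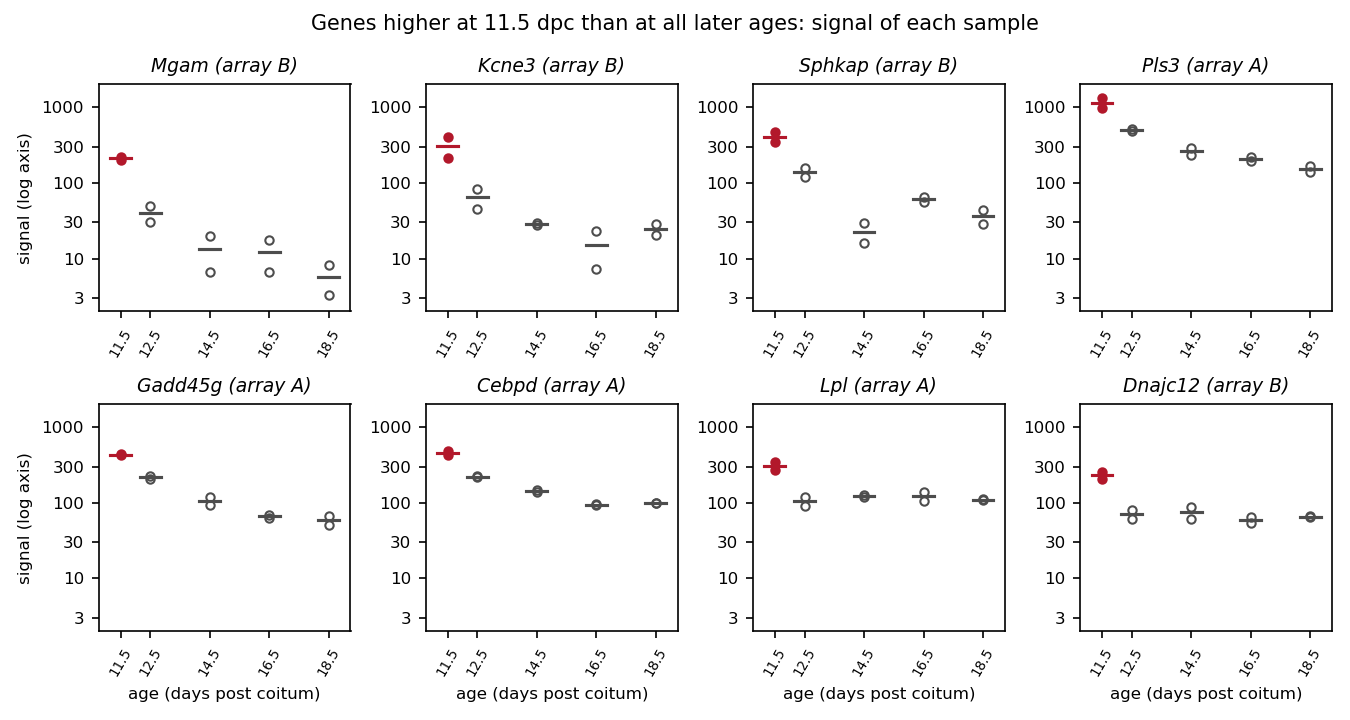
Signal of 8 genes in each of the 10 samples (log axis) against age in dpc, with filled red points for 11.5 dpc, open points for later ages and bars for the mean of the 2 samples of an age. In every panel both red points lie above all 8 open points. Lpl and Dnajc12 are flat from 12.5 dpc on, whereas Pls3 and Gadd45g go on falling.

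When the 8 later samples were treated as 1 group, so that differences among the later ages counted as error, 34 probe sets kept an adjusted p under 0.05. Of these, 8 (0.0322% of those tested) were higher and 26 (0.105%) lower at 11.5 dpc, and all 34 were separated. The higher ones stood for Mgam, Kcne3, Gbp2b, Dnajc12, Actr6, Lpl, Bach1 and Rnf19a. Actr6, an actin-related subunit of a chromatin remodelling complex, read 1701.4 and 1189.5 against 360.8 to 732.1 (median 451.1). Rnf19a, a ubiquitin ligase, read 477.6 and 518.9 against 222.5 to 283.8 (median 268.15), so the later samples spanned little of the distance to 11.5 dpc. Bach1, a haem-regulated repressor, read 393.5 and 337.9 against 144.7 to 214.7 (median 170.3). Among the lower ones were Dazl, Ddx4, Irx3, Igfbp2, Acsbg1, Slc4a4, Cybrd1, Lgals7 and Ano1.

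Of 24 tested factors of the early gonad and coelomic epithelium 6 (25%) were higher and 1 (4.17%) lower at 11.5 dpc. Their median difference was 0.45, beside -0.004 over all named genes, and 0.21 when all tested probe sets of the 24 genes were used. With 12.5 and 14.5 dpc alone as later ages 1 of the 24 was higher. The other 17 did not pass the test. The summed signal of the 24 genes was 12365.8 and 12677.3 at 11.5 dpc and 7156.8 to 10325.7 later. Bright members weigh most in such a sum, among them Igf1r (0.61) and Zfpm2 (1.33), which were not called. In RNA of whole ovaries, fewer cells of a type and less RNA per cell cannot be told apart, which holds for every list here.

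Gadd45g, a stress-response gene needed for timely Sry expression in the male gonad, read 424.0 and 442.1 at 11.5 dpc against 51.5 to 223.5 (median 80.75), a difference of 1.97 ± 0.14 (adjusted p = 7.87e-06). Lhx9, the LIM homeobox factor without which no gonad forms, read 732.1 and 393.1 against 142.5 to 388.4 (median 261.65). The lower of its 11.5 dpc signals was close to that of 14.5 dpc replicate 2. Its difference of 1.04 ± 0.19 (adjusted p = 0.00635) became 0.61 and lost its call without 11.5 dpc replicate 1. A second Lhx9 probe set on array A differed by 0.70 and was neither called nor separated. Its 11.5 dpc signals of 47.2 and 56.6 lay below the 89.3 and 59.8 of 12.5 dpc. Tcf21, a basic helix-loop-helix factor of urogenital mesenchyme, read 1022.6 and 740.6 against 256.5 to 627.5 (median 420.1). Its difference of 1.04 ± 0.19 also lost its call without that replicate (0.81). The nuclear receptors Nr2f1 (1.93) and Nr2f2 (0.98) and the Polycomb gene Cbx2 (0.52) were higher but not separated.

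The 3 factors that best mark gonadal somatic cells did not pass the test. Wt1 read 679.1 and 797.4 at 11.5 dpc against 446.9 to 838.7 (median 501.8), a difference of 0.46 (adjusted p = 0.0683). Gata4 read 926.2 and 1200.5 against 555.8 to 1078.9, a difference of 0.48 (adjusted p = 0.0844). Nr5a1 read 663.2 and 1227.5 against 556.1 to 872.4, a difference of 0.31 (adjusted p = 0.34), and its 11.5 dpc samples stood further apart than the whole later range. All 3 were thus measured at 11.5 dpc at levels that overlapped those of later ages. Nr0b1, a repressor that acts with NR5A1, differed by 0.38 (adjusted p = 0.23). Osr1, an early marker of intermediate mesoderm, differed by -0.56 (adjusted p = 0.366).

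Pluripotency transcripts, which in the gonad belong to germ cells, were above the later mean at 11.5 dpc but overlapped the 12.5 dpc signals. Of 21 tested primordial germ cell and pluripotency genes 7 (33.3%) were higher than the later mean, with a list median of 0.36, but none of the 21 was separated. At an unadjusted p under 0.05 limma gave 9 higher and 0 lower. With 12.5 and 14.5 dpc alone as later ages 0 of the 21 were higher. Pou5f1, which encodes OCT4, read 250.3 and 193.1 at 11.5 dpc, 521.1 and 313.1 at 12.5 dpc and 21.7 to 121.5 from 14.5 dpc on. Both 12.5 dpc samples therefore lay above both 11.5 dpc samples. Sox2 read 453.6 and 316.1 at 11.5 dpc, 494.2 and 446.7 at 12.5 dpc and 10.5 to 14.8 at 16.5 and 18.5 dpc, a difference of 2.03 ± 0.16 (adjusted p = 1.31e-05). Nanog read 120.3 and 166.8 at 11.5 dpc, below the 232.2 and 171.3 of 12.5 dpc, and its call was lost without 11.5 dpc replicate 2 (0.94 in place of 1.15). Dppa3, which protects maternal methylation marks and is expressed again in growing oocytes, had 11.5 dpc signals of 480.3 and 322.2, fell to 33.2 and 25.3 at 16.5 dpc and stood highest, with 1238.4 and 1086.2, at 18.5 dpc. Kit, the receptor of the germ cell survival factor KITL, differed by -0.16 (adjusted p = 0.599).

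Genes of the germ cell programme and of meiosis had the largest shares of lower genes among the 26 lists. Of 13 tested germ cell RNA and piRNA genes 9 (69.2%) were lower, 4 of them also separated, with a median of -1.20. Of 21 tested meiotic prophase genes 11 (52.4%) were lower, 5 of them also separated, with a median of -1.15. Set against 12.5 and 14.5 dpc alone, 5 of the 13 and 9 of the 21 were lower. The summed signal of the 13 germ cell genes was 1456.5 and 1659.1 at 11.5 dpc against 2233.4 to 10298 later, and that of the 21 meiotic genes 2409.1 and 2483.3 against 3028.5 to 17656.2.

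Because 9 genes of these lists were changed and separated in the same direction, their promoters were searched for CACGTG, the E-box that proteins of the MYC and MAX family bind. The window was the 250 bases before the transcription start in RefSeq (mouse build GRCm38.p6), on both strands, and the motif was picked with the members known. It occurred in 3 of the 9 (Ddx4, Stag3 and Sycp1), beside 6.05% of 27025 promoters. These windows held 31, 26 and 17 CpG dinucleotides, beside a median of 6 over all promoters. A match describes letters, not binding. The windows are given 5′ to 3′ on the gene's strand with the motif in capitals. That of Ddx4 is chr13:112652311-112652560 (minus strand, motif 29 bases before the start). That of Stag3 is chr5:138280259-138280508 (plus strand, 170 bases before), and that of Sycp1 is chr3:102936101-102936350 (minus strand, 94 bases before).
Ddx4: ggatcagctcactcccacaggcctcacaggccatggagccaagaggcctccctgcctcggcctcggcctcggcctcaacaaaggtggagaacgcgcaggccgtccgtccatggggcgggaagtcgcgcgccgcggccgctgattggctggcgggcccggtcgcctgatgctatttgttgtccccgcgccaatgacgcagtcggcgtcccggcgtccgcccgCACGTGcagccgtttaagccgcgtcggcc
Stag3: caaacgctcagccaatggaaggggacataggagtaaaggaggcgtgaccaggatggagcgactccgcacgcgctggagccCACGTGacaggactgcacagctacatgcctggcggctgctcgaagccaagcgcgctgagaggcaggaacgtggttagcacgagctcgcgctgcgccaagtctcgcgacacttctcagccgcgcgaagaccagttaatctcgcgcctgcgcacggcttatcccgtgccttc
Sycp1: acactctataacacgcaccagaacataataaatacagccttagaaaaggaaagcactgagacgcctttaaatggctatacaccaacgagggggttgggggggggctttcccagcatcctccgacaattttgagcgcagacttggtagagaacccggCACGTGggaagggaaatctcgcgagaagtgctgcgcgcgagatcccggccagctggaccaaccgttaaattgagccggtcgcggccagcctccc

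Dazl, an RNA-binding protein that licenses germ cells for gametogenesis, showed the widest gap of all named genes. It read 35 and 91.5 at 11.5 dpc and 431.1 to 1185.1 later (median 776), a difference of -3.33 ± 0.33 (adjusted p = 9.13e-05), a 10.1-fold difference. The later samples formed a plateau, with a difference of 0.22 between 18.5 and 12.5 dpc (adjusted p = 0.792). A second Dazl probe set on array A, with signals of 42.1 to 95.5 at all ages, differed by -0.52 and was not called. Ddx4, the germ cell RNA helicase also called VASA, read 41.7 and 85.5 against 137.6 to 355.4 (median 286.5), a difference of -1.84 ± 0.18 (adjusted p = 9.79e-05). Its second probe set, on array C, differed by 0.01, with 241.4 and 149.7 at 11.5 dpc inside the later range. The call for Ddx4 therefore rests on its array A probe set.

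Gtsf1, a zinc finger protein of the piRNA pathway, had 11.5 dpc signals of 57.8 and 63.4, already 155.2 and 140.8 a day later, and 2468.3 and 2940.7 in the oldest ovaries. Its difference was -3.16 ± 0.18 (adjusted p = 1.03e-06), and it was higher by 4.05 at 18.5 than at 12.5 dpc. Between those ages Gtsf1 was level, with 740.9 and 645 at 14.5 dpc and 733.4 and 619 at 16.5 dpc. Tdrd7, a Tudor protein of germ granules, read 95.5 and 93.2 against 106.4 to 416.3 (median 303.85), a difference of -1.27 ± 0.17. Its second probe set differed by -1.88 but was not separated, since 12.5 dpc signals of 10.5 and 10.2 matched the 11.5 dpc signals of 10.3 and 15.1.

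In all 5 meiotic genes that were changed and separated, the 12.5 dpc samples lay below those of 14.5 dpc. Sycp1, a transverse filament protein of the synaptonemal complex, read 3.1 and 1.3 at 11.5 dpc, 7.5 and 13.0 at 12.5 dpc and 239.1 to 924.9 from 14.5 dpc on. Its difference of -3.90 ± 0.18 (adjusted p = 2.23e-07) was the largest among the named lower genes, yet all 4 youngest samples were dim. Syce1, a central element protein of the same complex, read 36.1 and 111.7 at 11.5 dpc, 297.2 and 202.4 at 12.5 dpc and 1022.2 to 1613.2 later, a difference of -3.41 ± 0.27. Syce1 was thus already higher at 12.5 dpc. Stag3, the meiotic cohesin subunit, read 390.1 and 442.2 at 11.5 dpc against 904.4 to 6972.7 (median 2450), a difference of -2.36 ± 0.22 (adjusted p = 5.3e-05). A second Stag3 probe set, on array A, was also called (-2.29), with 5.8 and 7.5 at 11.5 dpc and 14.5 and 7.3 at 12.5 dpc, so it was not separated. Syce3 (-1.45) and Dmc1 (-1.30), a recombinase, were changed and separated as well.

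Stra8, the retinoic acid target that starts meiosis, changed without separation. It read 2.2 and 3.2 at 11.5 dpc, 8.6 and 2.7 at 12.5 dpc, 699.2 and 496.4 at 14.5 dpc and 9.7 to 83.1 at 16.5 and 18.5 dpc. The 14.5 dpc samples were thus the highest, and the 11.5 and 12.5 dpc samples overlapped. Figla, a transcription factor of oocytes, read 7.7 and 34.9 against 20.0 to 305.0, a difference of -1.68 ± 0.26 without separation. Sycp3 differed by -0.79 (adjusted p = 0.406). Of 19 tested oocyte genes 2 (10.5%) were lower, Figla and Lhx8.

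Of 27 tested pregranulosa and supporting cell genes 11 (40.7%) were lower at 11.5 dpc, 7 of them also separated, and 1 was higher, while the list median was -0.13 (-0.36 over all its tested probe sets). Irx3, an Iroquois homeobox factor of pregranulosa and germ cells, read 33.7 and 63.2 at 11.5 dpc against 214.4 to 656.2 (median 478), a difference of -2.85 ± 0.19 (adjusted p = 4.06e-06). Fst, follistatin, an activin antagonist, read 22.7 and 71.0 against 118.5 to 443.6 (median 235.4), a difference of -2.22 ± 0.29 (adjusted p = 0.000655). At 12.5 dpc Fst (413.3 and 236.0) was within its range of 14.5 dpc and later, whereas Irx3 (331.6 and 214.4) was still below it. A second Fst probe set differed by -0.46 and was not called, with 78.9 and 131.7 at 11.5 dpc overlapping the later 113.8 to 191.8.

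Gng13, a G protein gamma subunit, read 31.5 and 48.9 at 11.5 dpc, 129.0 and 64.6 at 12.5 dpc and 351.4 to 2061.6 later, a difference of -3.32 ± 0.33 (adjusted p = 9.28e-05). Lgr5, the R-spondin receptor of surface progenitors, read 9.3 and 8.3 at 11.5 dpc, 22.4 and 17.9 at 12.5 dpc and 89.8 to 204.5 later, a difference of -2.19 ± 0.17. In both genes all 4 samples of 11.5 and 12.5 dpc lay below those of 14.5 dpc and later. Foxl2, the transcription factor that maintains granulosa identity, was changed (-2.04 ± 0.24) but not separated, because 12.5 dpc replicate 2 read 92.8 beside 94.5 and 89.5 at 11.5 dpc. Its other 12.5 dpc sample read 242.9. Fgfr2, a receptor of fibroblast growth factors, read 220.2 and 216.9 against 352.3 to 574.4 (median 455.75), a difference of -0.97 ± 0.12 (adjusted p = 0.000408). Kitl, the ligand of KIT, read 779.3 and 945.1 against 1129.2 to 1733.2, a difference of -0.72 ± 0.12. The higher member was Inha, inhibin alpha, with 0.88.

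Of 30 tested WNT genes 5 (16.7%) were lower and 1 (3.33%) higher. Wnt4 itself read 1392.3 and 1833.8 at 11.5 dpc against 851.6 to 1673.0, a difference of 0.25 (adjusted p = 0.549). Rspo1, the secreted activator that works with WNT4 in the ovary, read 81.0 and 81.7 against 100.8 to 182.2 (median 153.1), a difference of -0.72 ± 0.16. Its call was lost without either 11.5 dpc sample (-0.72 and -0.73) and with arrays centred on their medians (-0.56). Tcf7l1, a transcriptional repressor of the pathway, was higher by 0.86, which fell to 0.46 and lost its call without 11.5 dpc replicate 1. The 5 lower calls became 3 without 11.5 dpc replicate 1 and 2 without replicate 2, and against 12.5 and 14.5 dpc alone there was 1. Leaving out 1 later sample gave 2 to 4 lower.

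Of 37 tested TGF-beta, activin and BMP genes 5 (13.5%) were lower and 2 (5.41%) higher. Without 11.5 dpc replicate 1 the 2 higher became 0. The 5 lower became 3 without either 12.5 dpc sample, without 16.5 dpc replicate 2 or without either 18.5 dpc sample. Id1 and Id4, inhibitors of helix-loop-helix factors that respond to BMP, were among the lower ones. Id1 read 263.1 and 280.0 at 11.5 dpc against 332.5 to 2021.6 (median 554.55), with the 18.5 dpc samples at 2002.4 and 2021.6, a difference of -1.29 ± 0.13. Id4 read 39.3 and 40.2 against 76.7 to 133.4 (median 87.95), a difference of -0.97 ± 0.17, with no further change to 18.5 dpc that passed the test (0.36, adjusted p = 0.325). Acvr1, a BMP type I receptor, was higher by 0.76 ± 0.17, a call lost without either 11.5 dpc sample (0.73 and 0.78). In the 34 tested hedgehog, Notch and FGF genes 3 (8.82%) were higher and 2 (5.88%) lower. Hey1, a target of Notch, read 208.4 and 270.8 against 55.2 to 147.3 (median 102.5), a difference of 1.11 ± 0.20, which was 0.93 and not called without 11.5 dpc replicate 2. Without that replicate 0 of the 34 was higher, and without replicate 1 it was 1. Against 12.5 and 14.5 dpc alone 3 of the TGF-beta list were lower and 0 higher, and 1 of the hedgehog list was lower and 0 higher.

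**Figure D2:**
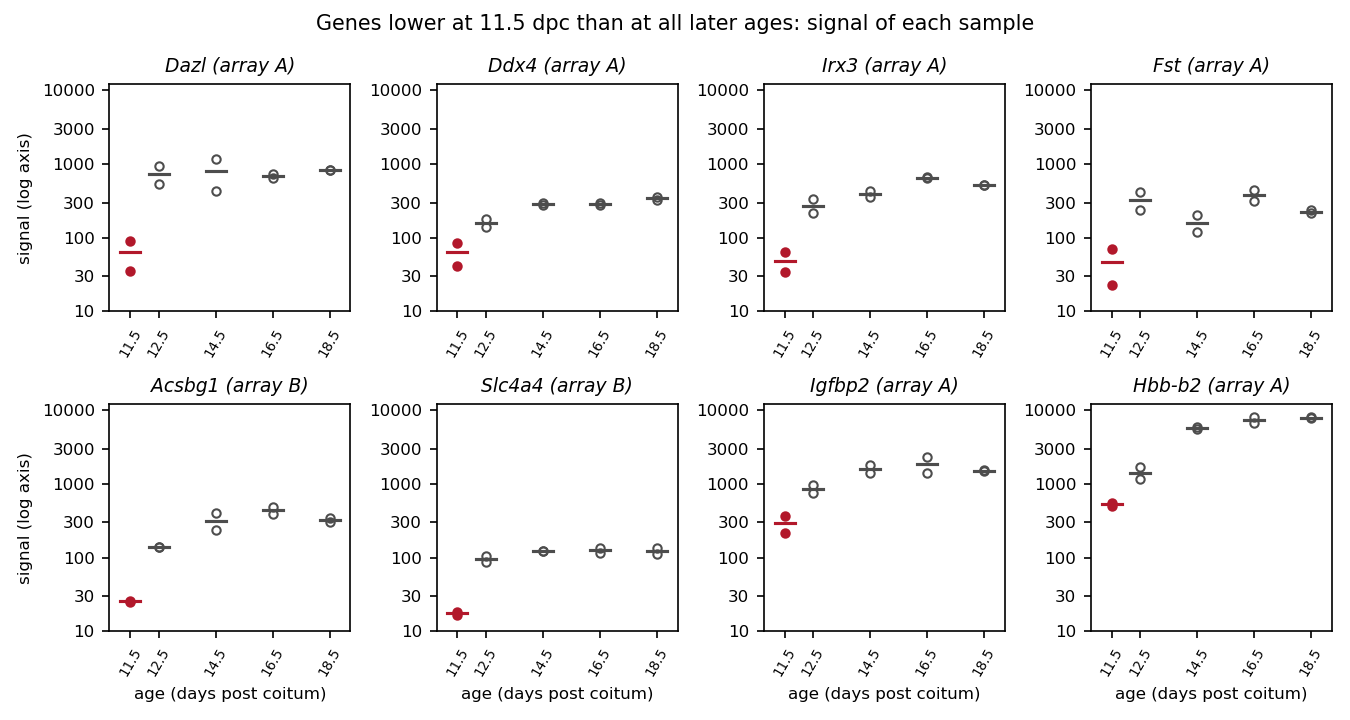
Signal of 8 genes in each of the 10 samples (log axis) against age in dpc, drawn as in the plot of genes high at 11.5 dpc. In every panel both red points lie below all 8 open points. Dazl and Fst reach their later range by 12.5 dpc, whereas Hbb-b2 rises further to 14.5 dpc.

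Genes outside these lists that were low at 11.5 dpc included metabolic and transport genes. Acsbg1, an acyl-CoA synthetase, read 25.1 and 25.7 at 11.5 dpc against 137.4 to 480.4 (median 320.55), a difference of -2.83 ± 0.20 (adjusted p = 4.06e-06). Slc4a4, a sodium bicarbonate cotransporter, read 16.8 and 18.1 against 87.0 to 136.6 (median 119.05), a difference of -1.98 ± 0.22. The later Slc4a4 signals were a plateau, but 2 further probe sets on array B differed by 0.07 and -0.39 and were not called. Igfbp2, an IGF-binding protein, read 214.3 and 366.8 against 752.7 to 2348.9 (median 1457.45), a difference of -2.25 ± 0.21 (adjusted p = 5.64e-05). Cybrd1, a ferric reductase, read 34.2 and 62.6 against 150.7 to 262.2 (median 206.9), a difference of -1.83 ± 0.27, while its other probe sets gave 0.14 and -0.66. Egfl6, a secreted EGF-repeat protein, read 397.7 and 566.2 against 1083.2 to 6004.9 (median 4415.9), a difference of -2.72 ± 0.19. Met, the receptor of hepatocyte growth factor, differed by -2.49, Ano1, a calcium-activated chloride channel, by -2.63, Tktl1, a transketolase-like protein, by -2.41, and 4930524B15Rik by -2.53.

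Of 33 tested mesenchyme and matrix genes 11 (33.3%) were lower and 3 (9.09%) higher, while 19 did not pass the test. Without 11.5 dpc replicate 1 there were 7 lower, and with 12.5 and 14.5 dpc alone as later ages there were 4. Leaving out either 11.5 dpc sample made the 3 higher 1. Eln, elastin, read 65.1 and 48.1 at 11.5 dpc, 77.9 and 76.5 at 12.5 dpc and 282.8 to 904.3 later, a difference of -2.39 ± 0.13 (adjusted p = 7.83e-07). Mgp, matrix Gla protein, read 23.2 and 11.5 against 45.6 to 346.0 (median 208), a difference of -2.39 ± 0.20. Col1a1, a chain of type I collagen, read 158.4 and 290.5 against 350.1 to 1775.0 (median 612.6), a difference of -1.52 ± 0.24, and its second probe set gave -0.42. Dcn (decorin), Lox (lysyl oxidase) and Col6a2 (a chain of type VI collagen) differed by -1.19, -1.5 and -1.31, and Col6a2 lost its call without 11.5 dpc replicate 1 (-0.75). The higher members were Postn (0.80), Vcan (1.52) and Tcf21, already described. Of 15 tested surface and mesothelial epithelium genes 7 (46.7%) were lower and 8 did not pass the test, with 4 lower against 12.5 and 14.5 dpc alone. Krt8, a keratin of simple epithelia, read 83.2 and 134.0 at 11.5 dpc, 167.3 and 139.0 at 12.5 dpc and 325.8 to 462.2 later, a difference of -1.43 ± 0.18. Lgals7, an epithelial galectin, read 272.6 and 91.7 against 465.5 to 1054.7 (median 631.15), a difference of -1.92 ± 0.27.

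Of 52 tested cell cycle and DNA replication genes 15 (28.8%) were higher and 2 (3.85%) lower, with a median of 0.30, and 5 of the higher ones were separated. The other 35 did not pass the test. Without 11.5 dpc replicate 1 there were 6 higher, and with 12.5 and 14.5 dpc alone as later ages there was 1. Skp2, the F-box protein that targets the inhibitor p27 and which was in no list, read 2033.8 and 1347.1 at 11.5 dpc against 146.5 to 1008.2 (median 439), a difference of 1.97 ± 0.20 (adjusted p = 0.000106). Rrm1, a subunit of ribonucleotide reductase, read 725.9 and 516.5 against 155.3 to 423.1 (median 238.7), a difference of 1.22 ± 0.16, although its dim second probe set gave -0.62. Cdk4 read 1691.1 and 2039.2 against 877.6 to 1612.4 (median 1118.05), a difference of 0.65 ± 0.12. Cdc6, a licensing factor of replication origins, and Pole2, a subunit of DNA polymerase epsilon, were higher by 0.73 and 1.08, both lost without 11.5 dpc replicate 1 (0.68 and 0.77). Bub1, a spindle checkpoint kinase, went the other way with 371.1 and 275.6 against 373.4 to 796.3, a difference of -0.82 that was lost without 11.5 dpc replicate 2 (-0.62). Another of its probe sets gave 0.39.

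Of 24 tested genes of embryonic timing and oncofetal growth 9 (37.5%) were higher and 2 (8.33%) lower, and 5 of the higher ones were separated. The other 13 did not pass the test. Without 11.5 dpc replicate 2 there were 5 higher, and with 12.5 and 14.5 dpc alone as later ages there was 1. Sox11, a transcription factor of embryonic progenitors, read 4214.5 and 3070.3 at 11.5 dpc against 549.9 to 2688.0 (median 1082.85), a difference of 1.64 ± 0.21, and fell by 1.97 from 12.5 to 18.5 dpc. Mdk, the growth factor midkine, read 2317.3 and 2531.3 against 705.0 to 2218.3 (median 1285), a difference of 0.94 ± 0.11 (adjusted p = 0.000335). Hmga2, a chromatin protein of fetal growth, read 1559.6 and 1507.6 at 11.5 dpc, 1323.5 and 1622.6 at 12.5 dpc and 78.9 to 443.4 later. Its difference of 2.36 ± 0.14 thus came without separation. Lin28a, an RNA-binding protein that blocks let-7 maturation, had signals of 26.1 to 86.9 in all 10 samples and differed by -0.05 (adjusted p = 0.945). Its sign turned under 6 other settings or probe sets. Trim71, a target of let-7, differed by -0.43 (adjusted p = 0.623).

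Of 26 tested genes of glycolysis and the hypoxia response 5 (19.2%) were higher and 1 (3.85%) lower, with a median of 0.24, and their summed signal was 21093 and 21135.3 at 11.5 dpc against 16274.6 to 19144.6. The other 20 did not pass the test, and with 12.5 and 14.5 dpc alone as later ages 0 of the 26 were higher. Ldha, lactate dehydrogenase A, read 1816.5 and 1714.7 against 751.9 to 1235.8 (median 1029.15), a difference of 0.77 ± 0.15 that was 0.73 and not called without 11.5 dpc replicate 1. Pgk1, phosphoglycerate kinase, read 1318.5 and 1371.5 against 621.1 to 1034.7 (median 874.4), a difference of 0.63 ± 0.11 (adjusted p = 0.00581). Pgam1, phosphoglycerate mutase, read 1125.6 and 1150.0 against 642.4 to 889.8, a difference of 0.62 ± 0.12, and Pkm, pyruvate kinase, 2576.3 and 2678.7 against 1329.2 to 2487.0, a difference of 0.67 ± 0.11. Ndrg1, a stress-response gene that hypoxia induces, was lower, with 68.2 and 119.1 against 133.7 to 280.2, a difference of -0.98 ± 0.17. Members of the list thus changed in both directions.

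The promoters of these 4 enzymes were searched in the same way for ACGTG, the core that hypoxia-inducible factors bind. The letters occurred in 3 of the 4 (Ldha, Pgam1 and Pgk1), beside 16.6% of 27025 promoters. These windows held 25, 22 and 17 CpG dinucleotides, and that of Pkm, without a match, held 21. The median over all promoters was 6, and ACGTG itself holds a CpG, so the 2 shares are not alike in base content. Every CACGTG holds ACGTG on both strands, so these searches overlap. The windows with more than 1 match are given, with each match on either strand in capitals, where CACGT is the match read on the other strand. That of Ldha is chr7:46845554-46845803 (plus strand) and that of Pgk1 is chrX:106186850-106187099 (plus strand).
Ldha: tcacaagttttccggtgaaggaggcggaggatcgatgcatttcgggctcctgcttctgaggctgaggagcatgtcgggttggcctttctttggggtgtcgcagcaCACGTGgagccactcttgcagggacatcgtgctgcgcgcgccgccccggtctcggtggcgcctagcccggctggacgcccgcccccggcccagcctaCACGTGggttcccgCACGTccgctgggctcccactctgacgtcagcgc
Pgk1: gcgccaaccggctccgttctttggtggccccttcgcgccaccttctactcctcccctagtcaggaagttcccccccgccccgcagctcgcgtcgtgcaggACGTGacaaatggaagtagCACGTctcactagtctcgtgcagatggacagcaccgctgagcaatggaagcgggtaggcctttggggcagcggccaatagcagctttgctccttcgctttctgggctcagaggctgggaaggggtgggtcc

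**Figure D3:**
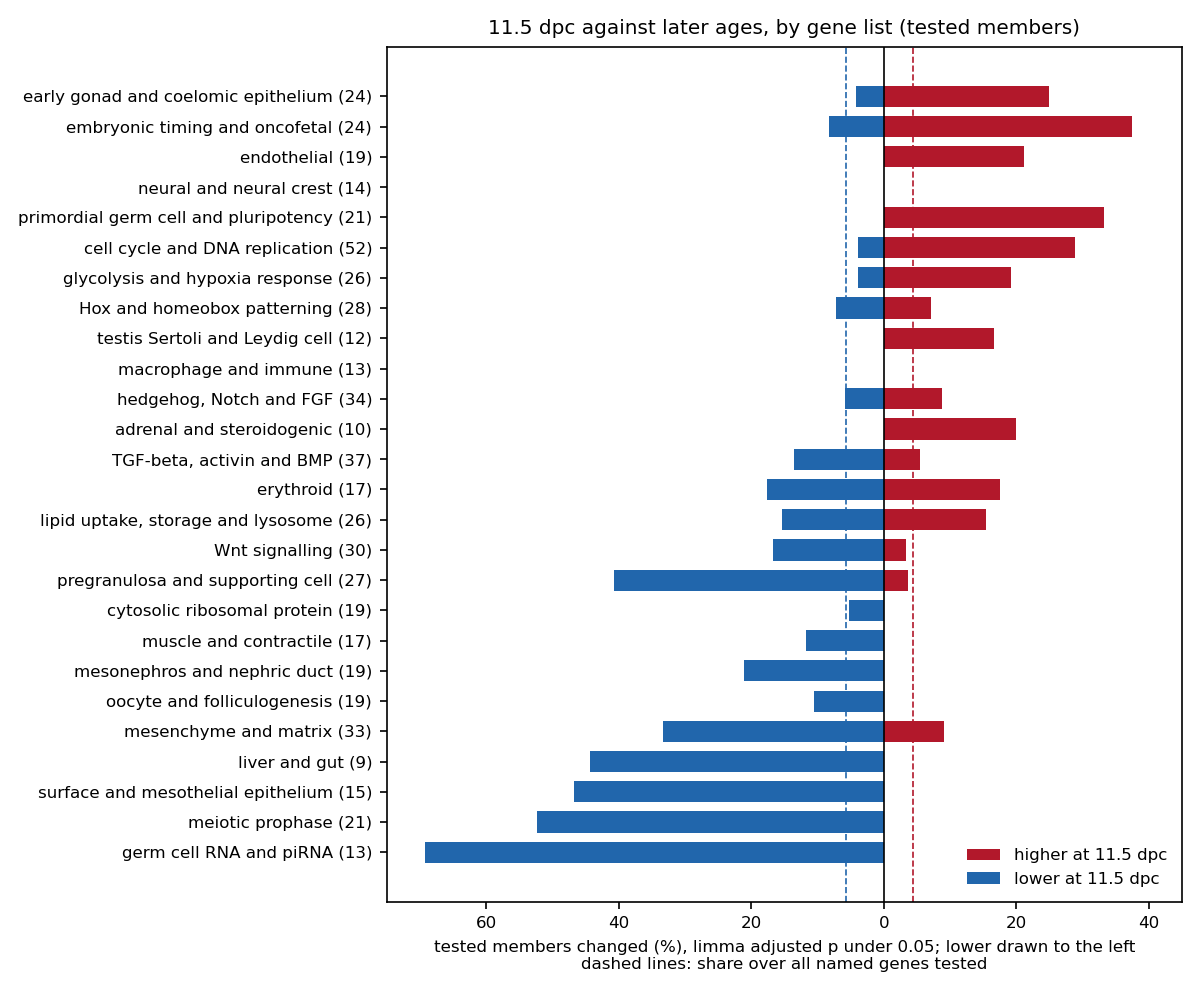
Share of the tested members of each gene list that changed (horizontal axis, percent; higher at 11.5 dpc in red to the right, lower in blue to the left), ordered by the list's median difference, with the number tested in brackets. Dashed lines mark the shares over all named genes, 4.35% higher and 5.77% lower. Germ cell RNA and meiotic genes reach furthest to the left (69.2% and 52.4%) and embryonic timing genes furthest to the right (37.5%).

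Of 17 tested erythroid genes 3 were higher and 3 lower at 11.5 dpc, or 17.6% each way. Over all named genes the shares were 4.35% and 5.77%. The other 11 did not pass the test, and against 12.5 and 14.5 dpc alone 1 was higher and 2 lower. The globins that changed split by the age at which they are made. The embryonic globins were higher at 11.5 dpc than the mean of the later ages, without separation. Hbb-y, an embryonic beta-like chain, read 8181.6 and 7160.4 at 11.5 dpc, 8336.2 and 9950.2 at 12.5 dpc, 7712.1 and 7288.3 at 14.5 dpc and 435 to 617.8 later. Hbb-bh1, another such chain, read 268.3 and 275.4 at 11.5 dpc, 255.2 and 290.8 at 12.5 dpc and 26.2 to 137.8 later. Hba-x, the embryonic alpha-like chain, read 4898.4 and 4307.6 at 11.5 dpc, 4076.5 and 4952.4 at 12.5 dpc and 51.9 to 62.3 at 18.5 dpc. The adult globins were lower and separated. Hbb-b2, an adult beta chain, read 555.7 and 497.5 at 11.5 dpc, 1150.5 and 1689.8 at 12.5 dpc and 5635.4 to 8016.4 later, a difference of -3.10 ± 0.14 (adjusted p = 2.23e-07). Hba-a1, an adult alpha chain, read 3719.7 and 3669.2 against 5176.4 to 15698.6 (median 9223.6), a difference of -1.35 ± 0.12. These globins are close copies of each other, so their probe sets may share signal. The summed signal of the 17 erythroid genes was 19316.5 and 17637.2 at 11.5 dpc against 19626.5 to 26247.7. Alas2, the haem synthesis enzyme of red cells, differed by -0.57, a call lost without either 11.5 dpc sample (-0.53 and -0.61) and with arrays centred on their medians (-0.40).

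Markers of other tissues near the gonad were read beside these results. The mesonephric markers Pax2 and Pax8 stayed below the limit for testing, with highest signals of 37.6 and 25.2. Of 19 tested mesonephros and nephric duct genes 4 (21.1%) were lower and 0 higher at 11.5 dpc by limma (1 higher and 5 lower at an unadjusted p under 0.05). The lower ones were Krt8, Krt18, Lgals7 and Eya1, of which the surface epithelium list also holds the keratins and Lgals7. The summed signal of the 19 was 2344.3 and 2344 at 11.5 dpc against 3095.7 to 4239.4, so both 11.5 dpc samples lay below every later sample. Much of that gap lay in Lgals7, Krt8, Krt18 and Wnt5a (-0.62, not called). Of the 19, 15 did not pass the test, among them Lhx1 (0.03), Gata3 (0.92) and Calb1 (-0.05), and 6 had a positive difference. The share of mesonephros in the samples was not tested. The steroidogenic enzyme Cyp11a1 read 54.3 and 112.0 against 10.9 to 49.4 (median 22.25), a difference of 1.30 ± 0.29 that was 0.87 and not called without 11.5 dpc replicate 2. It and Hmgcs1 were the 2 higher genes among 10 tested of the adrenal list, and either 11.5 dpc sample left out made that 1. Against 12.5 and 14.5 dpc alone the 4 lower mesonephros genes became 2 and the 2 higher adrenal genes 0.

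Endothelial genes were higher in 4 (21.1%) of 19 tested, which became 2 without either 11.5 dpc sample or without 12.5 dpc replicate 1, and 0 against 12.5 and 14.5 dpc alone. Fli1, an ETS factor of endothelial and blood cells, read 168.4 and 186.3 against 22.0 to 123.5 (median 52.9), a difference of 1.56 ± 0.26 (adjusted p = 0.0028). The endothelial sum was 2642.7 and 2691.1 against 1650.2 to 2415.1. For 13 macrophage and immune genes the sum was 1939.5 and 1883.3 against 1374.9 to 1771.2, although 0 of 13 changed by limma (2 higher and 0 lower at an unadjusted p under 0.05). For 14 neural and neural crest genes 0 changed (3 higher and 0 lower at an unadjusted p under 0.05). Of 9 tested liver and gut genes 4 (44.4%) were lower, among them Alb (albumin, -1.84), which read 723.6 and 706.5 at 18.5 dpc and 8.8 to 195.2 in the other samples. That count was 2 without 11.5 dpc replicate 1 and 1 without replicate 2, and 0 against 12.5 and 14.5 dpc alone. Of 17 muscle and contractile genes 2 (11.8%) and of 19 cytosolic ribosomal protein genes 1 (5.26%) were lower, and both counts were 0 without 11.5 dpc replicate 1. The part of vessels, immune cells, blood and neighbouring tissue in the differences of other genes was not tested.

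Testis markers were read as well. The series holds no male gonad, so it cannot show whether these probe sets would detect male tissue, and they do not test the sexing. Sry was read by 2 probe sets that stayed below the limit for testing, with highest signals of 16.9 and 47.3 over all ages. Sox9, the Sertoli cell factor, read 823.1 and 892.2 at 11.5 dpc against 477.0 to 822.8, which put both just above all later samples. Its difference was 0.41 (adjusted p = 0.178), on a probe set that may not be specific. Of 12 tested testis genes 2 (16.7%) were higher, Dmrt1 (1.08) and Rhox5 (0.91), and neither was separated. Leaving out either 11.5 dpc sample made that 1, and it was 0 against 12.5 and 14.5 dpc alone. Of 28 tested Hox and homeobox genes 2 (7.14%) were higher, Hoxa9 (1.33) and Hoxc8 (0.97), and 2 lower, Hoxc5 (-0.98) and Irx3 (-2.85). The 2 higher became 0 without 11.5 dpc replicate 1 or 16.5 dpc replicate 2, and with 12.5 and 14.5 dpc alone as later ages. The 2 lower became 1 without any 1 of the other samples than 11.5 dpc replicate 1, Irx3 keeping its call.

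The later course of the genes separated at 11.5 dpc was read from 18.5 against 12.5 dpc, in which 5.6% of probe sets were higher and 5.95% lower at 18.5 dpc (7.25% and 6.88% of named genes). The later arrays enter both contrasts, so the values are given side by side only. Among the named higher genes Skp2 (1.97 at 11.5 dpc, then -2.51), Adam8 (1.92, then -2.42), a membrane metalloprotease, and Gulp1 (1.90, then -2.33), an adaptor for engulfment, fell on to 18.5 dpc. Kyat3 (1.74, then -1.19), a kynurenine aminotransferase, was also lower at 18.5 than at 12.5 dpc. Olfml3 (1.78, then -2.15), a secreted olfactomedin-like protein, was lower in that contrast too, but without a steady fall. Its mean signal went from 255.7 (12.5 dpc) to 54.65 (14.5 dpc), 185.75 (16.5 dpc) and 47.85 (18.5 dpc). Lpl, Dnajc12, Pgam1 (-0.07) and Ldha (-0.21) had no further change that passed the test. Among the lower genes Sycp1 (5.14), Gtsf1 (4.05), Gng13 (3.81), Eln (3.11) and Tktl1 (2.98) rose most from 12.5 to 18.5 dpc. Dazl (0.22), Slc4a4 (0.30), Cybrd1 (0.34), Fgfr2 (0.15) and Lgals7 (-0.07) did not pass the test there.

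**Figure D4:**
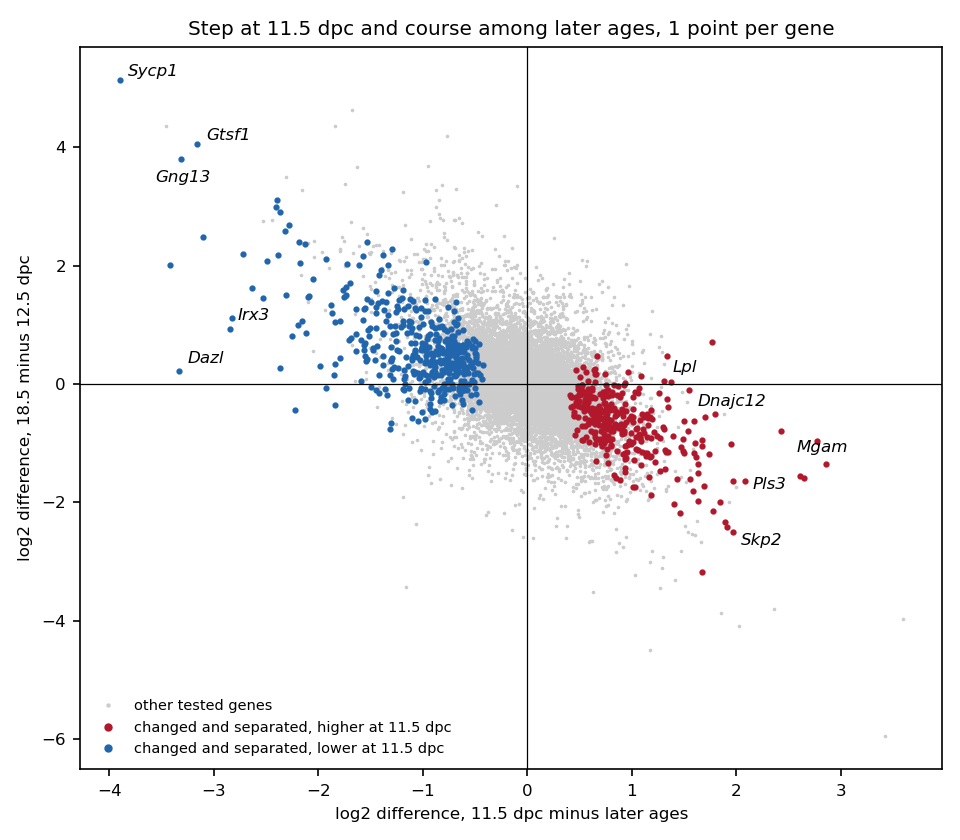
Log2 difference of 18.5 minus 12.5 dpc (vertical axis) against that of 11.5 dpc minus later ages (horizontal axis), with 1 point per named gene. Red and blue points are the 315 higher and 419 lower genes that were changed and separated, and grey points are all others. Dazl, Lpl and Dnajc12 lie near the horizontal line, and Sycp1 and Gtsf1 far above it.

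The named calls were uneven in strength. Of 85 named genes that were changed and separated, 45 kept their call under every setting other than the fit with the later samples as 1 group, in which 14 did. With 12.5 and 14.5 dpc alone as later ages 40 of the 85 lost their call, and without 11.5 dpc replicate 1 it was 17. Eya1, Fzd6, Hoxc5, Myl4, Nr6a1 and Rpl19 lost it under 7 to 15 settings each. Of the 85 genes 29 had another tested probe set. Among those 40 further probe sets 31 had the same sign, 7 were called in the same direction and 0 in the opposite one. Those of Lhx9, Dnajc12, Fgfr2, Cdk4, Pgk1 and Pkm had the same sign, but none of them was called.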

How the data were processed

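RNA of pooled embryonic ovaries was hybridised to 30 Affymetrix arrays, 10 of each of 3 types. Each deposited value was the signal intensity of a probe set on an array. Per the labels, the authors had scaled the signals of an array to a mean of 125. The software behind them is not given in the sources used.

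Signals were analysed as log2(signal + 16). Testing was limited to probe sets with a signal of 50 or more on at least 2 arrays, which kept 24825 of 36701 probe sets that were not controls. Gene symbols came from the platform annotation (29131 probe sets with 1 symbol, 724 with several, 6846 with none), and no symbol changed when compared with RefSeq. Emx2 and Lin28b were not analysed here. Each type was fitted with limma 3.58.1 in R 4.3.3 (5 age means, eBayes with an intensity trend, 5 residual degrees of freedom). The contrasts were 11.5 dpc minus the mean of the 4 later ages, and 18.5 minus 12.5 dpc. Benjamini-Hochberg adjustment ran over the 3 types together.

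Each gene was read from its tested probe set of highest mean log2 signal. Those of Sox2, Skp2, Gulp1, Naaa, Ccdc96, Wnt4, Stag3, Sox9, Hbb-y, Mgp, Egfl6 and Pkm, among others, carry an f, i, r or s suffix and may not be specific. Named genes were the 15 largest differences each way, the 8 widest gaps, up to 5 changed and separated members per list, and 40 fixed genes. A mean signal of at least 100 on the higher side was asked for in the choice by difference and by gap. The 26 lists (820 entries, 2 unmatched) and the comparison itself were chosen with earlier results of these data known.

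On simulated data for this contrast (24825 probe sets), the fit called 18 of 200 probe sets changed 1.5-fold, 77 of 200 changed 2-fold and 166 of 200 changed 4-fold, so smaller differences were mostly missed. Of 24225 simulated probe sets without a change the fit called 12, while 1071 were separated above or below. The simulation gave all later ages the same mean and drew independent noise for each sample. It held no differences among later ages and no deviation shared within an array, so these counts are not error rates for the real data. The number of arrays limits the precision. Alternatives changed the pseudocount, filter, scaling, model, later ages and samples.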

Additional observations from a re-analysis of the deposited data

Results flagged for a closer look

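In 3 of the 108 named genes 1 of the 8 later samples stood far from the other 7 by Dixon's criterion, and chance alone would set about 1 in 20 such groups apart. Ldha read 751.9 in 16.5 dpc replicate 1 and 981.1 to 1235.8 in the other later samples. Wt1 read 838.7 in 12.5 dpc replicate 1, above both 11.5 dpc samples, and 446.9 to 579.1 in the others. Rpl19, a ribosomal protein, read 8925.4 in 16.5 dpc replicate 2 and 6063 to 7229.7 in the others.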

How the results depend on the processing

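The 11.5 dpc group holds 2 samples, which sets the main limit. Leaving out 1 sample at a time gave 866 to 1918 changed probe sets (2094 with all samples), 2854 to 8052 separated (2685), 752 to 1780 changed and separated (1243), and 946 to 3475 changed between 18.5 and 12.5 dpc (2867). The lowest count for 11.5 dpc came without 11.5 dpc replicate 1, and the count without 18.5 dpc replicate 1 was 1389. The counts between 18.5 and 12.5 dpc were 980 and 1202 without 12.5 dpc replicates 1 and 2, and 946 and 1184 without 18.5 dpc replicates 1 and 2. With the later samples as 1 group 34 probe sets changed, and the same 34 were separated, since differences among the later ages then entered the error. With 12.5 and 14.5 dpc alone as later ages 307 changed, 4607 were separated and 266 were both. With 16.5 and 18.5 dpc alone the counts were 4246, 8715 and 4066. Without 12.5 dpc 4969 were separated and 2519 were both.

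Centring arrays on their medians left the counts within 1.5 times but turned the split, to 1109 higher and 943 lower for changed, 1658 and 1076 for separated (1288 and 1397 as scaled by the authors), and 721 and 550 for both. The other settings (pseudocount, filter, quantile normalization, no intensity trend, adjustment within an array type) kept all 4 counts within 1.5 times. Deviations of same-numbered samples were little correlated, which cannot show whether the samples were paired. The correlation ran from -0.161 to 0.219 over 30 comparisons of 2 ages on an array type. It was over 0.1 in 1 of them, and the lowest values were -0.161 and -0.103. A fit with the replicate block gave 1910 changed probe sets, 1141 changed and separated, and 2632 between 18.5 and 12.5 dpc.

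None of the 85 named genes that were changed and separated turned its sign under another setting of the same probe set. Except where arrays were rescaled this was fixed in advance, since separation puts both 11.5 dpc samples on 1 side of all later ones. It is therefore no measure of how stable these genes are. Another probe set of the gene had the opposite sign for Septin11 (-0.19), Ccdc96 (-0.29), Rrm1 (-0.62), Bub1 (0.39), Hoxc5 (0.21 and 0.62), Cybrd1 (0.14), Ddx4 (0.013) and Slc4a4 (0.073), and, among genes not called or not separated, for Gata4 (-0.23), Sox9 (-0.33), Nr5a1 (-0.028), Wnt4 (-0.028), Lin28a (0.36) and Trim71 (0.094). Hbb-y turned to -0.11 with 12.5 and 14.5 dpc alone as later ages, and Dppa3 to -0.33. With 1 sample left out at a time the differences ran from -0.025 to 0.53 for Dppa3, from -0.12 to 0.75 for Nr5a1 and from -0.30 to 0.20 for Lin28a, with the extremes on leaving out either 11.5 dpc sample. Lin28a turned to 0.38 with 16.5 and 18.5 dpc alone and to 0.12 without 12.5 dpc. Kit turned to 0.00024 with arrays centred on their medians. The causes were not tested.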

Other observations

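Among the 26 probe sets that were lower at 11.5 dpc even when the 8 later samples were taken as 1 group, several stood for genes in none of the lists and named by no rule, so they were picked after their values were seen. Ltbp4, which binds latent TGF-beta in the matrix, read 50.1 and 91.2 at 11.5 dpc and 176.6 to 644 later (median 356.7). Cd99, a cell surface glycoprotein, read 117.8 and 189.4 against 288.6 to 451 (median 364). Stard10, a phospholipid transfer protein, read 46.3 and 30.2 against 97.1 to 220.7 (median 137.25). Parp10, an ADP-ribosyltransferase, read 84 and 153.9 against 321.2 to 597.8 (median 453.4). In each of them the 11.5 dpc samples stood below the whole later range. A further 6 of the 34 probe sets have no gene symbol in the annotation used.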
